A study of Mus musculus with 8 samples.

Results

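The nuclear-encoded subunits of the mitochondrial respiratory chain and ATP synthase were followed in RNA of mouse colon epithelial cells. They were taken by gene symbol: the Nduf subunits of complex I, Sdha to Sdhd of complex II, the Uqcr subunits and Cyc1 of complex III, cytochrome c (Cycs), the Cox4 to Cox8 subunits of complex IV and the Atp5 subunits of ATP synthase (complex V). Pseudogenes marked -ps and assembly factors (symbols with "af") were left out. The rule took 87 of the 55487 rows of the table, 37 of complex I, 4 of complex II, 9 of complex III, Cycs, 18 of complex IV and 18 of complex V. Atp5o stood on 2 rows, of which 1 was listed at 0 in every library. Of the 87 rows, 80 reached 1 TPM in at least 4 of the 8 libraries and were tested. The 7 untested rows were Cox4i2, Cox6a2, Cox6c2, Cox7b2, Cox8b, Cox8c and the second Atp5o row, and none of them exceeded 0.710 TPM in any library.

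The respiratory chain passes electrons from NADH (complex I) and succinate (complex II) through ubiquinone to complex III, from there by cytochrome c to complex IV, and so to oxygen. Complexes I, III and IV pump protons across the inner mitochondrial membrane, and ATP synthase uses their return flow to make ATP. Complex II is built from nuclear genes alone, while the other complexes join nuclear-encoded subunits with a few made from mitochondrial DNA. In the colon, mature surface epithelial cells are rich in mitochondria and burn butyrate from the gut bacteria as a main fuel.

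The libraries came from intestinal epithelial cells of the colon of C57BL/6J mice, 4 wild type (WT) and 4 PIM1+/-, the labels' name for mice heterozygous at Pim1, a gene of a serine/threonine kinase. No source used here gives the age or sex of the mice, any treatment or the structure of the altered allele. The labels number the libraries 1 to 4 within each genotype but do not say that each came from its own animal, so p-values rest on the spread among libraries, which may be technical. Values were TPM, a transcript abundance that corrects for transcript length and fixes the sum of each library. The read depth behind a value is therefore unknown. Pim1 itself stood at 5.72 to 8.83 TPM in WT and 5.64 to 7.97 TPM in PIM1+/- and did not differ past the threshold (log2 fold change -0.19 ± 0.15, limma adjusted p = 0.411), so its level does not check the labels. Epcam, which marks epithelium, stood at a mean of 1226 TPM in WT and 1284 TPM in PIM1+/-. In any library, 6 fibroblast markers summed to at most 2.17 TPM and 8 muscle markers to at most 10.3 TPM.

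On the deposited TPM scale most nuclear-encoded subunits stood slightly higher in PIM1+/- than in WT. That held for 61 of the 80 tested once mitochondrially encoded genes were taken out of the scale. With their annotated nuclear copies taken out too, it held for 49 (given with the mitochondrially encoded genes). On the deposited scale 27 of the 80 (33.75%) were higher past an adjusted p of 0.05, where 8.93% of all 12760 tested genes were. Another 2 (2.5%), Ndufa6 and Cox7a1, were lower, where 8.54% of all were. The log2 fold change on the log2(TPM + 1) scale was positive for 70 subunits and negative for 10, with a median of 0.15, against -0.01 over all tested genes. In TPM the median change was 10.7%. All 4 PIM1+/- libraries lay above all 4 WT libraries for 37 subunits and below them for 2, against 11.9% and 11.6% of all tested genes. Without Benjamini-Hochberg adjustment, 50 subunits (62.5%) were higher and 2 (2.5%) lower at p under 0.05, beside 2077 (16.3%) and 2055 (16.1%) of the 12760 tested genes.

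On the deposited scale the difference was small, and for the summed level it was larger than the spread of the libraries. Among the tested subunits the median coefficient of variation was 4.94% in WT and 3.95% in PIM1+/-. The median deviation of the 80 subunits from their WT means was 0.02, 0.05, -0.02 and -0.06 on the log2 scale in WT replicates 1 to 4, and 0.13, 0.13, 0.15 and 0.16 in PIM1+/- replicates 1 to 4. Summed over all members, the level was 38969 ± 1085 TPM in WT and 42470.0 ± 681 TPM in PIM1+/- (SD, n = 4 each), with ranges of 37559 to 39884 TPM in WT and 41607 to 43249.5 TPM in PIM1+/-. On this scale the sum was thus 8.98% higher, and the ranges did not overlap. Sums were not taken under the other scalings. Without mitochondrially encoded genes and their nuclear copies, the median log2 fold change of the subunits was 0.04. The subunits are also abundant transcripts, with a median level of 334 TPM against 13.9 TPM over all tested genes. The 1179 genes with a mean of at least 100 TPM, a filter chosen after the data were seen, were fitted and adjusted separately. Of these 29.3% were higher and 15.3% lower, and of the 74 subunits among them 37 (50%) were higher and 2 lower. In that group the median log2 fold change was 0.15 for the subunits and 0.07 for all genes.

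The number of subunits past the threshold moved with single libraries. It was 27 with all libraries and 19, 26, 15 and 14 without WT replicate 1, 2, 3 or 4, and 21, 16, 15 and 15 without PIM1+/- replicate 1, 2, 3 or 4. Over all tested genes the number called higher fell too, from 1139 to between 744 (without WT replicate 4) and 1009 (without WT replicate 2). A fall in calls was therefore not particular to the subunits. Every one of these 8 fits called 13 of the 27: Ndufa9, Ndufa10, Ndufa11, Ndufb6, Ndufb7, Ndufs8, Sdhc, Cyc1, Uqcrfs1, Uqcrq, Cycs, Cox5a and Atp5g1. Of the 2 lower members, Cox7a1 was called in each of the 8 fits, and Ndufa6 was not. In bulk RNA, more or fewer cells of a type cannot be told apart from more or less RNA per cell.

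Cell type markers moved with the genotype as well, again beside 8.93% higher and 8.54% lower among all tested genes. Of 10 epithelial markers 6 were higher and 0 lower, including Car1 (0.88), Krt20 (0.62) and Cdx2 (0.62). The other 4, Slc26a3 (-0.28), Cdh1 (-0.09), Epcam (0.07) and Muc2 (0.21), did not pass the threshold. The sum of the 10 ran from 15328.5 to 20611 TPM in WT and from 23789 to 30120.3 TPM in PIM1+/-. Car1 alone went from a mean of 7135 to 12859 TPM, and the sum of the others from 11919 to 13996 TPM. Of 9 T and NK cell markers 7 were higher, with sums of 10.2 to 23.3 TPM and 40.5 to 101 TPM. Myeloid markers had 3 of 4 tested members higher, with sums of 1.84 to 5.30 TPM and 14.9 to 17.6 TPM. B and plasma cell markers had 0 called, with sums of 4.22 to 14.5 TPM and 8.12 to 13.1 TPM. Red blood cell markers had 2 of 3 tested members higher, with sums of 5.88 to 14.9 TPM and 20.9 to 28.1 TPM. Fibroblast markers summed to at most 0.630 TPM in WT and 2.17 TPM in PIM1+/-, none of them tested. Endothelial markers summed to 2.11 to 4.95 TPM and 1.97 to 3.08 TPM. Their part in the differences of the subunits was not tested.

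The members differ widely in level. TPM corrects for length, so levels can be compared, except where reads may be divided between near-identical rows. The lowest members of complexes I and V, Ndufb4 and Atp5g2, have such copies with higher means (Ndufb4c 304 TPM, Gm10175 566 TPM). The median mean level per gene was 211 TPM in complex I (43.4 to 555 TPM), 275 TPM in complex II (157 to 358 TPM), 506 TPM in complex III (312 to 1329 TPM), 924 TPM in complex IV (8.54 to 2164 TPM) and 693 TPM in complex V (13 to 2380 TPM). The summed TPM of each complex on the deposited scale was higher in PIM1+/-, by 6.78% for complex I, 11.9% for complex II, 8.94% for complex III, 6.77% for complex IV and 12.1% for complex V. The summed ranges of complexes II, III, IV and V did not overlap between the genotypes, and those of complex I did: 7792 to 8732 TPM in WT and 8618 to 9060.3 TPM in PIM1+/-. For complex V they were 11998 to 12881 TPM in WT and 13847 to 14429.9 TPM in PIM1+/-, and for complex IV 11217 to 11646 TPM in WT and 11806 to 12411 TPM in PIM1+/-.

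**Figure D1:**
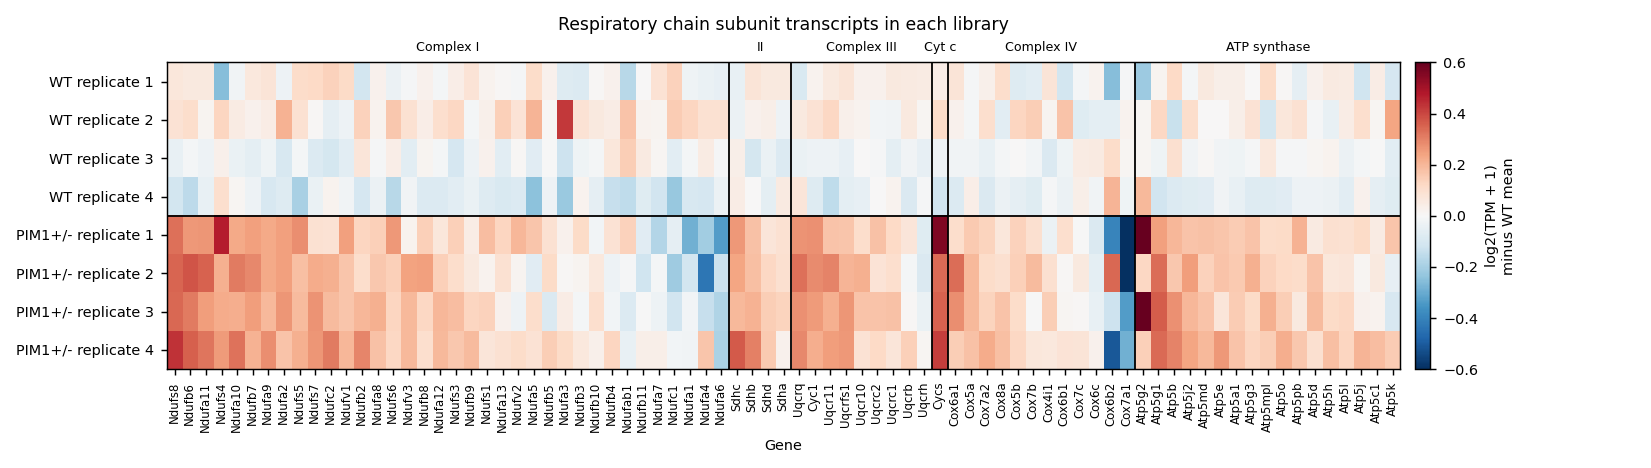
Level of 79 of the 80 tested subunits (columns, grouped by complex and ordered by fold change) in each library (rows, 4 WT above 4 PIM1+/-), as log2(TPM + 1) minus the mean of the WT libraries, with the colour scale ending at 0.6 in either direction. On the deposited scale the PIM1+/- rows are mostly above 0, with Cox7a1 and Ndufa6 below it.

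Complex I oxidises NADH. Of its 37 tested members 11 were higher and 1 lower (29.7% and 2.70%, beside 8.93% and 8.54% of all genes), with a median log2 fold change of 0.15. In the catalytic core, the subunits that carry the flavin and the iron-sulfur clusters and reach the ubiquinone site, Ndufs7, Ndufs8 and Ndufv1 were among the higher members. Ndufs8, which carries iron-sulfur clusters on the way to ubiquinone, stood at 201, 203, 185 and 177 TPM in WT and 240.5, 243, 243 and 259 TPM in PIM1+/-. All 4 PIM1+/- values were above the WT values, a log2 fold change of 0.36 ± 0.06 (limma adjusted p = 0.00332). For Ndufs7, the core subunit next to ubiquinone, the log2 fold change was 0.21 ± 0.06 (limma adjusted p = 0.0411). Ndufv1, which binds NADH and the flavin, had 0.19 ± 0.05 (limma adjusted p = 0.0315). Both fold changes were smaller than that of Ndufs8, and their calls rested on most of the libraries. Ndufs7 was no longer called without WT replicate 2, 3 or 4, and without PIM1+/- replicate 2, 3 or 4 (adjusted p 0.0239 to 0.101 over the 8 fits that leave out 1 library). Ndufv1 lost its call without WT replicate 2, 3 or 4, and without PIM1+/- replicate 1, 2, 3 or 4 (adjusted p 0.0236 to 0.0781).

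The accessory subunits of complex I surround the core and hold it together. Of 30, 7 were higher (Ndufa2, Ndufa8, Ndufa9, Ndufa10, Ndufa11, Ndufb6 and Ndufb7) and 1 was lower, with a median of 0.13. Ndufa11, a membrane-arm subunit that helps stabilise the complex, stood at 314, 304, 295 and 292 TPM in WT and 362, 386, 359 and 376 TPM in PIM1+/-. The genotypes did not overlap, and the log2 fold change of 0.30 ± 0.05 had the smallest adjusted p of all members (limma adjusted p = 0.00321). Ndufa10, a matrix-side subunit related to nucleoside kinases, stood at 115, 121, 114 and 118 TPM in WT and 137, 146, 136 and 147 TPM in PIM1+/- (log2 fold change 0.27 ± 0.05, limma adjusted p = 0.0058). Its WT values were tightly grouped and all PIM1+/- values lay above them. Ndufb7, on the intermembrane side of the membrane arm, stood at 259.9, 253, 239 and 244 TPM in WT and 295, 304, 296 and 288 TPM in PIM1+/- (0.25 ± 0.04, limma adjusted p = 0.00649). Ndufb6, a membrane-arm subunit, stood at 139, 143, 132 and 119 TPM in WT and 159, 173, 165 and 171 TPM in PIM1+/- (0.33 ± 0.06, limma adjusted p = 0.0088). Neither of these overlapped between the genotypes. The other 3 had log2 fold changes of 0.23 for Ndufa9, which binds NADPH, 0.17 for Ndufa8 and 0.23 for Ndufa2. Ndufa8 lost its call without WT replicate 4, and without PIM1+/- replicate 3 (adjusted p 0.0286 to 0.0596). Ndufa2 lost its call without WT replicate 1, 3 or 4, and without PIM1+/- replicate 1, 2, 3 or 4 (adjusted p 0.00595 to 0.117).

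Ndufa6, which anchors the mitochondrial acyl carrier protein Ndufab1 to the matrix arm and is the complex I member with the highest mean, went the other way. It stood at 574, 635, 591 and 581 TPM in WT and 471, 544, 525 and 522 TPM in PIM1+/-. All PIM1+/- values were below all WT values, a log2 fold change of -0.21 ± 0.06 or -13.4% in TPM (limma adjusted p = 0.0356). Ndufa6 lost its call without WT replicate 1, 2, 3 or 4, and without PIM1+/- replicate 1, 3 or 4 (adjusted p 0.0416 to 0.0732). The negative but uncalled complex I members included Ndufa1, at -0.11, and Ndufa4, at -0.15 (limma adjusted p = 0.381), which is counted here by its name although the protein is a subunit of complex IV.

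**Figure D2:**
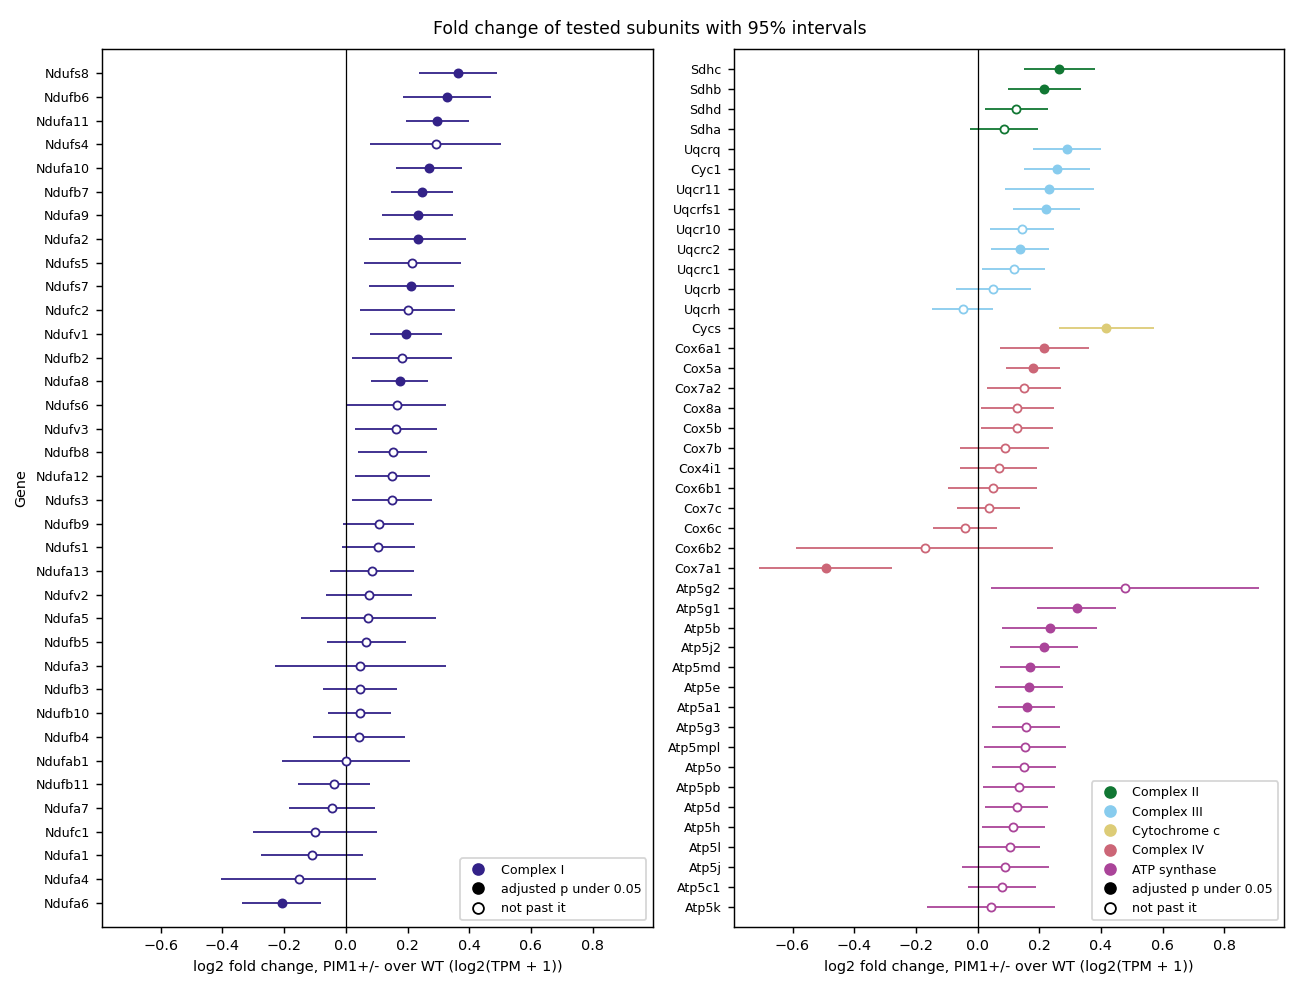
Log2 fold change (PIM1+/- minus WT, log2(TPM + 1) scale, bars 95% confidence intervals) of 79 of the 80 tested subunits by complex, with those past an adjusted p of 0.05 marked. On the deposited scale points lie mostly right of 0, and Cox7a1 at -0.49 lies farthest to the left.

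Complex II, succinate dehydrogenase, links the citric acid cycle to the chain. On the deposited scale its 4 members all had positive fold changes (3 of 4 without mitochondrially encoded genes and nuclear copies), and 2 of them, Sdhb and Sdhc, were higher past the threshold, beside 8.93% of all tested genes. Sdhc, a membrane anchor subunit, stood at 139, 139, 146 and 147 TPM in WT and 171, 168, 164 and 184 TPM in PIM1+/- (0.26 ± 0.05, limma adjusted p = 0.00876). Sdhb, the iron-sulfur subunit, stood at 292, 282, 258 and 277 TPM in WT and 313, 315, 320.2 and 341 TPM in PIM1+/- (0.22 ± 0.05, limma adjusted p = 0.0227). The PIM1+/- values of both lay above their WT values. Sdhd, the other anchor, stood at 357, 351, 333 and 329 TPM in WT and 359.6, 374, 379.5 and 382 TPM in PIM1+/- (0.13 ± 0.05, limma adjusted p = 0.0896). Sdha, the flavoprotein that oxidises succinate, stood at 252, 237, 229 and 251 TPM in WT and 257, 259, 265 and 246 TPM in PIM1+/- (0.09 ± 0.05, limma adjusted p = 0.264). Neither Sdhd nor Sdha passed the threshold. Sdhb lost its call without WT replicate 3 or 4, and without PIM1+/- replicate 3 or 4 (adjusted p 0.034 to 0.0533).

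Complex III, the cytochrome bc1 complex, had 5 of 9 members higher (Cyc1, Uqcrfs1, Uqcrq, Uqcr11 and Uqcrc2), beside 8.93% of all tested genes, and a median log2 fold change of 0.14. Both nuclear-encoded catalytic subunits were among them. Cyc1, cytochrome c1, stood at 297, 310.0, 286 and 277 TPM in WT and 354, 356, 349 and 339.5 TPM in PIM1+/- (0.26 ± 0.05, limma adjusted p = 0.00732). Uqcrfs1, the Rieske iron-sulfur protein, stood at 324, 313, 296 and 295 TPM in WT and 344, 353, 368 and 368 TPM in PIM1+/- (0.22 ± 0.05, limma adjusted p = 0.0148). The genotypes did not overlap in either. Uqcrq, a small subunit near the cytochrome b core, stood at 427, 473, 443 and 479 TPM in WT and 548, 571, 549.5 and 556 TPM in PIM1+/- (0.29 ± 0.05, limma adjusted p = 0.00509). The 4 PIM1+/- values of Uqcrq were within a narrow band above the WT values. Uqcr11, the smallest subunit, stood at 632, 662, 595 and 547 TPM in WT and 684, 746, 704 and 723 TPM in PIM1+/- (0.23 ± 0.06, limma adjusted p = 0.0356). Uqcrc2, a core structural subunit, stood at 302, 293, 296 and 297 TPM in WT and 335, 314, 335 and 323 TPM in PIM1+/- (0.14 ± 0.04, limma adjusted p = 0.049). Uqcr10, the most abundant member of the complex, stood at 1285, 1279, 1265 and 1221 TPM in WT and 1356, 1462, 1424 and 1341 TPM in PIM1+/- and missed the threshold (0.14 ± 0.05, limma adjusted p = 0.06). Uqcrb, Uqcrh and Uqcrc1 were not called either, with log2 fold changes of 0.05, -0.05 and 0.12. Uqcr11 lost its call without WT replicate 1, 3 or 4, and without PIM1+/- replicate 2, 3 or 4 (adjusted p 0.0218 to 0.0885). Uqcrc2 lost its call without any 1 of the 8 libraries (adjusted p 0.0581 to 0.125).

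Cycs, the soluble carrier that takes electrons from complex III to complex IV and triggers apoptosis when released, stood at 83.5, 87.6, 79.4 and 74.7 TPM in WT and 120.1, 103, 104 and 109 TPM in PIM1+/-. Every PIM1+/- library lay above every WT library, the change in mean was 34.0%, and the log2 fold change of 0.42 ± 0.07 was the largest among the members called higher (limma adjusted p = 0.00436). Cycs has a near-identical copy in the table, Gm10053 (170.3 TPM in WT, 224 TPM in PIM1+/-), between which reads may be divided. The sum of Cycs and the copy was 32.5% higher.

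Complex IV, cytochrome c oxidase, passes electrons to oxygen. Of its 12 tested members 2 were higher and 1 was lower (16.7% and 8.33%, beside 8.93% and 8.54% of all tested genes), with a median of 0.08. This median turned to -0.03 after rescaling without mitochondrially encoded genes and their nuclear copies. The 2 higher members were Cox5a and Cox6a1, which lie on the outside of the catalytic core. Cox5a stood at 860.2, 855, 852 and 887 TPM in WT and 962, 989, 988 and 976 TPM in PIM1+/- (0.18 ± 0.04, limma adjusted p = 0.0138). Cox6a1, the widely expressed form of subunit 6A, had the highest mean among the complex's rows, with near-identical copies not added. It stood at 2113, 2033, 1969 and 1889 TPM in WT and 2150.4, 2524, 2424 and 2212 TPM in PIM1+/- (0.22 ± 0.06, limma adjusted p = 0.0476). Cox6a1 lost its call without WT replicate 1, 2, 3 or 4, and without PIM1+/- replicate 2, 3 or 4 (adjusted p 0.0359 to 0.115). The 6 complex IV rows listed at or near 0 were the tissue-restricted isoforms Cox4i2, Cox6a2, Cox7b2, Cox8b and Cox8c, and the processed pseudogene Cox6c2.

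Cox7a1, the form of subunit 7A typical of heart and skeletal muscle, was the member with the largest fall. It stood at 214, 219, 217 and 212 TPM in WT and 142, 128, 171 and 176 TPM in PIM1+/-. No PIM1+/- library reached the lowest WT library, and the mean was lower by 28.5% (log2 fold change -0.49 ± 0.10, limma adjusted p = 0.00889). Its adjusted p ran from 0.00608 to 0.0267 when 1 library was left out. Cox7a2, its widely expressed partner isoform, stood at 466, 489.9, 443 and 429 TPM in WT and 500.5, 493, 501 and 533 TPM in PIM1+/- (0.15 ± 0.05, limma adjusted p = 0.0831). The share of Cox7a1 in the sum of Cox7a1 and Cox7a2 was 31.5%, 30.9%, 32.9% and 33.0% in WT and 22.1%, 20.6%, 25.4% and 24.8% in PIM1+/-. The means were 32.1% ± 1.06 and 23.2% ± 2.28 (SD, n = 4 each), a difference of -8.84 percentage points. A two-sided exact permutation test gave p = 0.0286, the smallest value that 4 against 4 libraries can give. In PIM1+/- Cox7a1 lay wholly below and Cox7a2 wholly above its WT libraries, so the share had to separate. The test therefore adds nothing to those values. Muscle markers (8 genes, 1 of them tested and 0 called) summed to 4.95 to 9.16 TPM in WT and 5.62 to 10.3 TPM in PIM1+/-, with Ckm at 0.

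In the other isoform pairs 1 isoform carried nearly all of the RNA, and no member passed the threshold apart from Cox6a1. Cox4i1 stood at 1971, 1895, 1762 and 1861 TPM in WT and 1828, 1999, 2073 and 1953 TPM in PIM1+/- (0.07 ± 0.06, limma adjusted p = 0.44), and its hypoxia- and lung-associated partner Cox4i2 at no more than 0.14 TPM. Cox6b1 had a log2 fold change of 0.05 ± 0.06 (limma adjusted p = 0.642) and stood at 1167, 1421, 1241 and 1232 TPM in WT and 1354, 1267, 1270.2 and 1334 TPM in PIM1+/-. Its testis form Cox6b2 stood at 7.32, 8.54, 9.74 and 10.4 TPM in WT and 6.54, 11.6, 8.12 and 5.99 TPM in PIM1+/- (-0.17 ± 0.18, limma adjusted p = 0.566). Neither form differed past the threshold, and the libraries of the genotypes overlapped. Cox7b stood at 409, 474, 422 and 406 TPM in WT and 456, 488, 426 and 447 TPM in PIM1+/- (0.09 ± 0.06, limma adjusted p = 0.379), and Cox8a at 1642, 1460.1, 1513 and 1489 TPM in WT and 1596, 1631, 1717 and 1728 TPM in PIM1+/- (0.13 ± 0.05, limma adjusted p = 0.128).

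**Figure D3:**
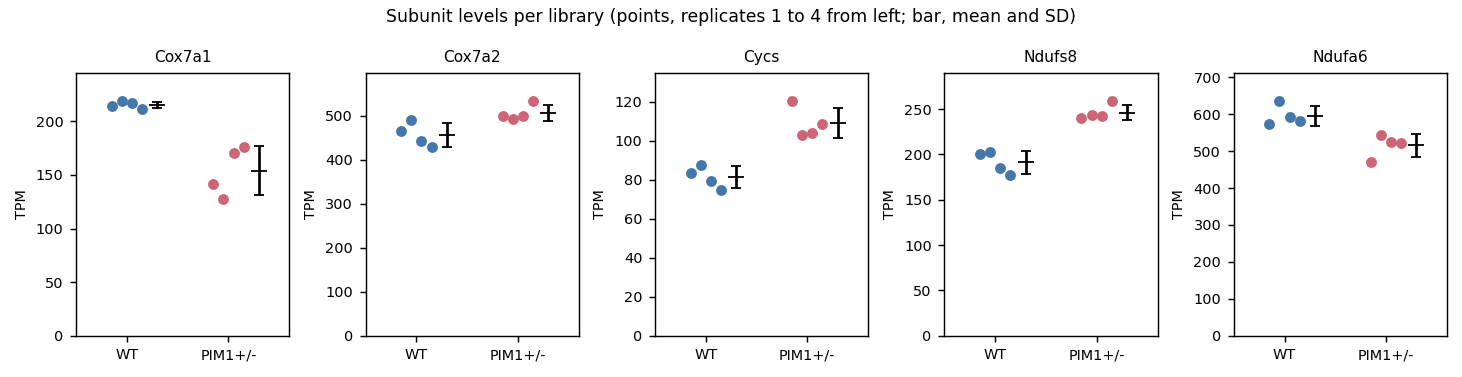
TPM of Cox7a1, Cox7a2, Cycs, Ndufs8 and Ndufa6 in each library (points, replicates 1 to 4 from left), with the mean and SD of each genotype (bar, n = 4) and each axis starting at 0. Cox7a1 and Ndufa6 lie lower in PIM1+/- and the other panels higher, without overlap between the genotypes.

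ATP synthase (complex V) had 6 of 17 tested members higher and 0 lower, beside 8.93% and 8.54% of all tested genes, with all 17 fold changes positive on the deposited scale (13 of 17 without mitochondrially encoded genes and nuclear copies) and a median of 0.15. In the catalytic F1 head and central stalk 3 of 5 members were higher. Atp5b, the catalytic beta subunit and the most abundant of all members, stood at 2373, 1989.8, 2336 and 2062 TPM in WT and 2505, 2446, 2640.3 and 2686 TPM in PIM1+/- (0.23 ± 0.07, limma adjusted p = 0.0464). Atp5a1, the alpha subunit, stood at 963, 964, 922 and 912 TPM in WT and 1043, 1049, 1046 and 1059.7 TPM in PIM1+/- (0.16 ± 0.04, limma adjusted p = 0.0273), and Atp5e, the epsilon subunit, at 733, 717, 705 and 704 TPM in WT and 801, 805, 752 and 856 TPM in PIM1+/- (0.17 ± 0.05, limma adjusted p = 0.0438). In each of these 3 the lowest PIM1+/- library lay above the highest WT library. Of the 3 genes for the proton-carrying c ring, which encode the same mature protein, Atp5g1 stood at 648, 697, 628 and 591 TPM in WT and 760.0, 808, 822 and 809 TPM in PIM1+/- (0.32 ± 0.06, limma adjusted p = 0.00644). Its PIM1+/- values all lay above its WT values. Atp5g3 stood at 1077, 1143, 1070.2 and 1019 TPM in WT and 1211, 1249, 1165 and 1177 TPM in PIM1+/- (0.16 ± 0.05, limma adjusted p = 0.0561). Atp5g2 was much lower, at 8.88, 10.6, 10.6 and 12.1 TPM in WT and 16.9, 11.5, 22.1 and 11.7 TPM in PIM1+/-, and its larger fold change of 0.48 ± 0.19 was not past the threshold (limma adjusted p = 0.122). The 2 groups of Atp5g2 libraries overlapped. Among the remaining 9, Atp5j2, in the membrane part, stood at 472, 513, 470.0 and 453 TPM in WT and 537, 567, 548 and 562 TPM in PIM1+/- (0.21 ± 0.05, limma adjusted p = 0.0176), and Atp5md at 866, 832, 836 and 794 TPM in WT and 941, 915, 938 and 951 TPM in PIM1+/- (0.17 ± 0.04, limma adjusted p = 0.0266). The genotypes did not overlap in Atp5g1, Atp5j2 or Atp5md. Atp5b lost its call without WT replicate 2, 3 or 4, and without PIM1+/- replicate 1, 2, 3 or 4 (adjusted p 0.0453 to 0.109). Atp5a1 lost its call without WT replicate 1, 3 or 4, and without PIM1+/- replicate 2, 3 or 4 (adjusted p 0.0343 to 0.0687). Atp5e lost its call without WT replicate 1, 2, 3 or 4, and without PIM1+/- replicate 1, 2 or 4 (adjusted p 0.0363 to 0.0962). Atp5j2 lost its call without WT replicate 1, and without PIM1+/- replicate 2 (adjusted p 0.00991 to 0.0538). Atp5md lost its call without WT replicate 3 or 4, and without PIM1+/- replicate 1, 3 or 4 (adjusted p 0.0421 to 0.0665).

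Some members share near-identical sequence with other rows, so their reads may be divided between rows. At 95% identity, 26 member rows had such copies in the table, and 8 had copies at 1 TPM or more. The copy of Atp5g2, Gm10175, stood at 559 TPM in WT and 572 TPM in PIM1+/-, far above the gene itself, and their sum changed by 3.12%. Ndufb4 stood at a mean of 43.4 TPM and its copy Ndufb4c at 304 and 303 TPM. Atp5l with its copies was 15.8% higher. With copies added to each member, 28 members were higher and 2 lower, beside 8.95% and 8.56% of all tested genes. The median was unchanged at 0.15.

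To show the promoter letters beside the results, the 150 bases upstream of the RefSeq transcription start (GRCm38.p6) follow for the 2 members called lower and for the 6 that had a RefSeq window among those called higher under every alternative that tested them. They run 5′ to 3′ on the gene's strand, with capitals marking matches to 2 forms of the site of the nuclear respiratory factor NRF1, GCATGCGC and a longer one made of GCGCA, any base and GCGC. NRF1 is a known regulator of respiratory genes. The windows are at chr7:30184021-30184170 on the plus strand (Cox7a1), chr15:82354292-82354441 on the minus strand (Ndufa6), chr1:92473759-92473908 on the minus strand (Ndufa10), chr17:56717612-56717761 on the plus strand (Ndufa11), chr4:40279422-40279571 on the minus strand (Ndufb6), chr19:3912775-3912924 on the minus strand (Ndufs8), chr6:50566570-50566719 on the minus strand (Cycs) and chr11:96075632-96075781 on the minus strand (Atp5g1).
Cox7a1: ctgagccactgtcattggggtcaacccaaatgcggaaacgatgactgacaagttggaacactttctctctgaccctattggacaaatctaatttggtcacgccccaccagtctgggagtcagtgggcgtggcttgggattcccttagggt
Ndufa6: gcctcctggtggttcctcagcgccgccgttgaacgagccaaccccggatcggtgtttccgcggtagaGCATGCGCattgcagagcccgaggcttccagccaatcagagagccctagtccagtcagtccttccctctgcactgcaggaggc
Ndufa10: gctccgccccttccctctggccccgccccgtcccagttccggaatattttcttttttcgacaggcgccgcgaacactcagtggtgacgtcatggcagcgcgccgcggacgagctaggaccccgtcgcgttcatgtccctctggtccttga
Ndufa11: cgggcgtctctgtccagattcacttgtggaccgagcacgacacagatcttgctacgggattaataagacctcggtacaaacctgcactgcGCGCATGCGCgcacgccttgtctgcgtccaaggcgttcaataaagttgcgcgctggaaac
Ndufb6: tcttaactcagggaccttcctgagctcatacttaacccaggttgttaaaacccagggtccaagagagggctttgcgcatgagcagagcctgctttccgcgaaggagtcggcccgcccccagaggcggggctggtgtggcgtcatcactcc
Ndufs8: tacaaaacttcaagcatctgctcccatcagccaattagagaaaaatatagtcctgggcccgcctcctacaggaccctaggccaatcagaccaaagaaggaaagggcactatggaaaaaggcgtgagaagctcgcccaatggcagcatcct
Cycs: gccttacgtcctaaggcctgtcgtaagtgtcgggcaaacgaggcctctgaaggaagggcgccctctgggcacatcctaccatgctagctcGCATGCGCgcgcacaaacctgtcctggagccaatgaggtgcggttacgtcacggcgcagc
Atp5g1: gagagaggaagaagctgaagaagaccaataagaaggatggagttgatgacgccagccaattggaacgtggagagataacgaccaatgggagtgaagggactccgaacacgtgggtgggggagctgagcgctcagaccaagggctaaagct
The matches begin 83 bases before the start in Ndufa6, 60 in Ndufa11 and 60 in Cycs. The stretches of Cox7a1, Ndufa10, Ndufb6, Ndufs8 and Atp5g1 held neither form. In windows from 250 bases before to 50 after the start, searched on both strands, RefSeq gave a promoter for 67 of the 80 tested members. The longer form stood in 25.4% of these, in 11.8% of 9559 tested genes and in 5.19% of all 27025 promoters. GCATGCGC, which can overlap it and was chosen after the windows were seen, stood in 16.4%, 6.05% and 3.05%. Among members with a window, GCATGCGC stood in 6 of 20 called higher and 4 of 45 not called, and the longer form in 3 of 20 and 13 of 45. The ETS-type letters CCGGAAG stood in 25.4%, 21% and 9.93%, the YY1-type letters ATGGCGG in 14.9%, 9.60% and 4.69%, and the estrogen-related receptor letters AAGGTCA in 11.9%, 4.03% and 5.38%. A match describes letters in a window and no binding. The 300-base window of Cox7a1 held 7 CG dinucleotides and that of Ndufa6 held 27, beside a median of 20 over the members.

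The mitochondrially encoded partners went the other way. Of the 13 genes, 10 were tested, with a median log2 fold change of -0.40. Among the 10, 8 (80%) were lower and 0 higher, beside 8.54% and 8.93% of all tested genes. mt-Cytb, the cytochrome b of complex III, stood at 12746, 13692, 13198 and 13975 TPM in WT and 8650.4, 10146, 10076 and 10219.6 TPM in PIM1+/- (-0.46 ± 0.07, limma adjusted p = 0.003). mt-Nd2, a proton-pumping subunit of complex I, had -0.45 ± 0.06 (limma adjusted p = 0.00153), and mt-Nd4, another, -0.44 ± 0.07 (limma adjusted p = 0.00457). mt-Atp6 and mt-Co2 were listed at 0 in every library and mt-Co3 at 0.3 TPM or less although cells with a respiratory chain use all 3, so only the listing can be given for them. The summed level was 160197 ± 9489 TPM in WT and 126416 ± 5110.0 TPM in PIM1+/- (SD, n = 4 each), a change of -21.1%. Its largest part was mt-Atp8, at means of 83232 TPM in WT and 63594 TPM in PIM1+/-. Next came mt-Co1, at 39827 and 35118 TPM, which was not called (limma adjusted p = 0.137). mt-Atp8 overlaps mt-Atp6, listed at 0, and how reads were assigned between them was not tested. All mt- genes made up 16.9% ± 1.01 of TPM in WT and 13.4% ± 0.557 in PIM1+/- (SD, n = 4 each), and a two-sided exact permutation test gave p = 0.0286, the smallest possible. The shares ran from 16.1% to 18.4% in WT and from 12.5% to 13.7% in PIM1+/-. Without overlap the test had to give this value, so it adds nothing to the shares. The ratio of nuclear members to mitochondrially encoded subunits was 0.216 to 0.262 in WT and 0.327 to 0.350 in PIM1+/-. Its denominator holds mt-Atp6, mt-Co2 and mt-Co3 as listed and leaves out nuclear copies, and the part of read assignment in it was not tested. Nuclear copies of mitochondrial genes, 16 pseudogenes, summed to 110439 ± 5897 TPM in WT and 89864 ± 6074 TPM in PIM1+/- (SD, n = 4 each).

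Because TPM fixes the sum of a library, this share enters every other value. After rescaling without the mitochondrially encoded genes, 13 members were higher (16.2%, against 6.56% of all genes) and 2 lower (2.5%, against 12.0%), with a median of 0.09 for members and -0.07 for all genes. Without the nuclear copies as well, 8 members were higher (10%, against 5.55%) and 3 lower (3.75%, against 16.8%; Ndufa6, Cox7a1 and Uqcrh), with medians of 0.04 and -0.11. The shift of all genes in this last scaling was past 0.1, and members stood 0.15 above all genes in it, as they stood 0.16 above under the deposited scale. Rescaling multiplies all genes of a library by the same factor, so their fold changes shift nearly together. The members' place relative to all genes was therefore bound to stay nearly the same, and that it did so does not test the scaling. The absolute direction of the members could change: in this last scaling 49 were positive and 31 negative. Upper quartile scaling gave 12 members higher, where 7.26% of all genes were, and 2 lower, where 11.9% were. Cyc1, Uqcrq, Ndufs8, Ndufa10, Ndufa11, Ndufb6 and Atp5g1 were called higher, and Cox7a1 lower, under all 20 alternatives. Cycs was called higher in each of these except that of a mean of at least 100 TPM, which left it out.

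**Figure D4:**
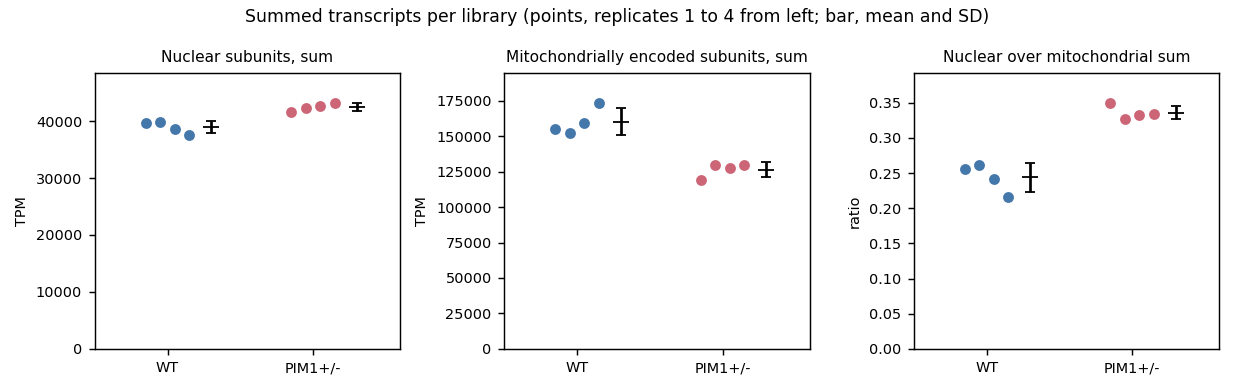
Summed TPM of nuclear-encoded members and of mitochondrially encoded subunits, and their ratio, in each library (points, replicates 1 to 4 from left), with the mean and SD of each genotype (bar, n = 4) and axes starting at 0. On the deposited scale the nuclear sum is 8.98% higher and the mitochondrial sum 21.1% lower in PIM1+/-. The genotypes do not overlap in either. The mitochondrial sum holds mt-Atp6, mt-Co2 and mt-Co3 at or near 0 and leaves out nuclear copies.

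**Figure D5:**
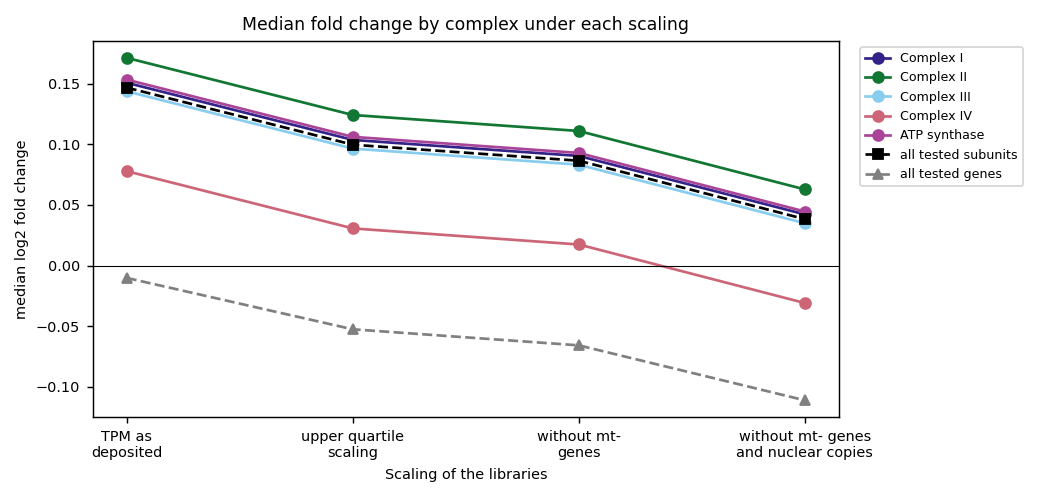
Median log2 fold change (vertical axis) of each complex with more than 1 member, of all tested subunits and of all tested genes under the deposited scale and 3 rescalings (horizontal axis). The medians of subunits and of all genes fall together from 0.15 and -0.01 to 0.04 and -0.11, and that of complex IV ends at -0.03.

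Other genes of the pathway were counted in the same way, beside 8.93% higher and 8.54% lower among all tested genes. Of 48 tested assembly factors, which build the complexes, 2 were higher and 0 lower: Sco1, a copper carrier for complex IV (0.27 ± 0.07, limma adjusted p = 0.0206), and Cox18, which inserts a complex IV subunit (0.38 ± 0.11, limma adjusted p = 0.0401). Of 18 regulators of mitochondrial genes 0 were higher and 3 lower: Ppargc1a, the coactivator of mitochondrial biogenesis (-0.54 ± 0.16, limma adjusted p = 0.0431), Esrrg (-0.43 ± 0.11, limma adjusted p = 0.0331) and Yy1 (-0.33 ± 0.09, limma adjusted p = 0.0305). Ppargc1b, Esrra, Nrf1, Gabpa and Tfam had log2 fold changes of -0.0041, -0.15, 0.19, -0.11 and 0.22 and were not past the threshold. Of 19 genes of the citric acid cycle and pyruvate dehydrogenase 2 were higher, with Mdh2 at 0.30, and 2 lower (Pcx -0.43, Dlat -0.31). Fatty acid oxidation had 2 of 18 higher (Eci1 0.29, Etfa 0.23) and 1 lower (Hadhb -0.25). Among 7 genes for ATP export and outer membrane channels, the ADP/ATP carrier Slc25a4 was higher (0.61 ± 0.11, limma adjusted p = 0.00663), while Ckmt1 (-0.66) and Slc25a3 (-0.15) were lower. Of 4 tested relatives of the subunits outside the rule, Higd1a (0.70) and AA467197 (0.36), the mouse Nmes1 gene related to Ndufa4, were higher and Cox7a2l (-0.28), a supercomplex assembly factor related to Cox7a, was lower. Of the 20 called genes named from these lists and the mitochondrially encoded list, 11 were called in all 8 fits that left out 1 library. The others were Slc25a3 (0 of 8 fits), Etfa (1 of 8), Cox18, Yy1, Esrrg, Ppargc1a and Dlat (2 of 8 each), and Sco1 and Cox7a2l (7 of 8 each, not called without WT replicate 4 and WT replicate 1). Without WT replicates 1, 3 or 4 in turn, Ppargc1a, Esrrg, Yy1 and Cox18 were not called, with adjusted p up to 0.107, 0.0896, 0.0795 and 0.0997 over the 8 fits.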

How the data were processed

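RNA from colon epithelial cells was measured in 4 WT and 4 PIM1+/- libraries. The authors' deposited table holds TPM per gene, from RSEM per the labels' design text. Per the submitters' processing notes the build was GRCm38.p6, and HISAT2, StringTie and edgeR are listed there with neither version nor role. No source used here gives the annotation release, strand setting, filters or read depth, so no counting interval is given. Of the per-sample columns 0 were unmatched to a label.

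The log2(TPM + 1) values were fitted with limma 3.58.1 (R 4.3.3) on genotype, with an empirical Bayes trend and two-sided tests. The 12760 tested genes reached 1 TPM in 4 or more of the 8 libraries. Adjustment was by Benjamini-Hochberg over all of them, with a threshold of 0.05. The scale understates fold changes of low genes. GENCODE M21 (GRCm38) held 55141 of the 55487 gene IDs. BLAST+ 2.17.0 found near-identical copies (95% identity or more over 300 bases or 80% of length, beyond 5 kb) and nuclear copies of mitochondrial genes (90% identity or more over 80% of length). Promoters were RefSeq windows. For 60 of the 70 member rows with one, its last bases lay in a GENCODE transcript of the gene; for Cycs they did not. The fit was tested on simulated data.

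The members and lists were chosen with earlier results of these data known. Library values are given for up to 5 called members per complex and direction with the smallest p, the most abundant member, complex II, Cycs and isoform pairs, and up to 3 called members of each other list and 6 regulators are named. Ndufs1, Ndufs7, Ndufv1, Ndufv2, Ndufa1, Ndufa2, Ndufa4, Ndufa8, Ndufa9, Uqcrb, Uqcrc1, Uqcrh, Ndufb4, Atp5l and near-identical copies were named after their values were seen. Alternatives were limma without the trend, other scalings, filters, a pseudocount of 0.1, other thresholds, a replicate block and leaving out each library. A mean of at least 100 TPM and members summed with their copies were added after the data were seen. Coa1 was not matched and Pet117 was at 0. Some results are not reported here. Figures used matplotlib 3.10.9.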

Additional observations from a re-analysis of the deposited data

Results flagged for a closer look

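In groups of 4 libraries, a library was marked where its distance to the nearest of the others was above the 95% critical value of Dixon for the share of the whole range, which chance reaches in about 1 in 20 groups. Of 166 groups of values examined, 10 were marked. Among the members these were Ndufs8 in PIM1+/-, with replicate 4 at 258.53 TPM and the others at 240.5 to 243 TPM, and Ndufs1 in WT, with 1 library at 96.5 TPM and the others at 103 to 104 TPM. The summed complex IV of PIM1+/- replicate 1, at 11805.5 TPM, lay below the others at 12313.5 to 12411.2 TPM. In the same genotype, mt-Cytb was marked at 8650 TPM, the sum of mitochondrially encoded subunits at 118827 TPM and the sum of all mt- genes at 124178 TPM, each the lowest value of its group and each in PIM1+/- replicate 1. Outside the members, Esrrg in PIM1+/- was marked at 2.62 TPM, Nrf1 in PIM1+/- at 16.1 TPM, Hadhb in PIM1+/- at 136 TPM and Higd1a in WT at 215 TPM.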

How the results depend on the processing

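Read depth is not kept in TPM, so its limit on each value is unknown. The members called higher, 27 as reported, came to 13 without the trend, 12 with upper quartile scaling, 13 rescaled without mitochondrially encoded genes, 8 without these and their nuclear copies, 17 with no filter and 10 at a threshold of 0.01, and ranged from 14 to 26 with 1 library left out. The members called lower, 2 as reported, came to 1 without the trend, with no filter and at 0.01, and to 1 or 2 with 1 library left out. Among all tested genes 1139 were higher as reported, 974 without the trend and 773 with no filter. With 1 library left out 744 to 1009 were higher. Of all tested genes 8.54% were lower as reported and 8.10% without the trend. That share was 2.49% with no filter and 4.77% to 8.25% with 1 library left out. In the order without the trend, upper quartile scaling, without mitochondrially encoded genes, without these and nuclear copies, and 0.01, the members called higher were 6, 6, 6, 4 and 5 in complex I (17 at a threshold of 0.1), 1, 1, 1, 0 and 1 in complex II, 3, 3, 3, 2 and 2 in complex III, 0, 0, 0, 0 and 0 in complex IV, and 2, 1, 2, 1 and 1 in complex V. With no filter they were 3 in complex III, 1 in complex IV and 2 in complex V. With 1 library left out they ranged from 6 to 10, 1 to 2, 3 to 4, 1 to 3 and 2 to 6 in complexes I to V. Ndufa6, the complex I member called lower, gave 0 without the trend, with no filter and at 0.01, and 0 to 1 with 1 library left out. Complex III had 1 member called lower without mitochondrially encoded genes and nuclear copies. The median, 0.15, came to 0.10, 0.087 and 0.038 under the 3 rescalings, and ran from 0.12 to 0.17 with 1 library left out. Cycs was called higher under every alternative that tested it, and Cox7a1 lower under every alternative run. Beyond the rescaling itself and the fewer samples, the cause was not tested.

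With the replicate number as a block, 10 members (12.5%) were higher and 1 (1.25%) lower, beside 5.96% and 5.40% of all tested genes. The members called higher were 5, 1, 2, 0 and 1 in complexes I to V, and 0 were lower in complex I. The numbers did not pair the libraries: correlations of the deviations of same-numbered libraries were -0.136, 0.032, -0.033 and -0.071, and no library correlated best with its own number.

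Without mitochondrially encoded genes and nuclear copies, 21 uncalled members went from a positive to a negative log2 fold change, from -0.11 to -0.0026. Those named in the text with values were Sdha (-0.023), Cox4i1 (-0.041), Cox6b1 (-0.060, and -0.011 with the copies kept), Cox7b (-0.021), Ndufs1 (-0.0026), Ndufv2 (-0.034), Uqcrb (-0.057, and -0.0091 with the copies kept), Atp5l (-0.0046) and Ndufb4 (-0.064, -0.017 with the copies kept, -0.0039 with upper quartile scaling and from -0.0037 without WT replicate 4 to 0.066 without PIM1+/- replicate 2). Ppargc1b, near 0, ran from -0.068 to 0.057 with 1 library left out, and was positive without WT replicate 1 or 3 and without PIM1+/- replicate 1 or 2.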
